A study of Anopheles gambiae with 104 samples.

Results

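Transcript levels in mosquito heads were set at dawn against dusk under a light:dark cycle (LD). The heads, with mouthparts and antennae, came from mated female Anopheles gambiae of the Pimperena strain (S form) that had not been blood fed. Females aged 7 to 9 days entered the experiment, and pools of 20 to 30 were collected at each time point. LD meant 11 h of full light with transitions of 1 h at dawn and at dusk. The dawn arrays were those collected at zeitgeber time (ZT) 24 and 48, the end of the dawn transition, and the dusk arrays those at ZT12, 36 and 60, when the lights went off. With 2 arrays per time point this gave 4 dawn and 6 dusk arrays, 10 of the 26 arrays of heads in LD and 10 of the 104 arrays of the series. Bodies of the same regime, and heads of females of the same strain, age and mating status in constant dark (DD), were used for comparison. In DD, dawn and dusk are subjective times (CT) carried on from the earlier light cycle.

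In insects a circadian clock of interlocked transcription feedback loops runs in brain neurons and in other cells, including photoreceptors and antennal neurons. Clock genes and many of their targets reach their peak near dusk or near dawn, and light resets the clock through the eyes and through the blue light receptor cryptochrome in clock cells. Anopheles gambiae is active at night, with mating swarms at dusk and blood seeking through the night. ZT24 and ZT12 therefore stand at the ends of its active period. The array reads each transcript through one or more probe sets, and the table used here gives probe set names but no genes. None of the 16884 Anopheles names matched the reference table of 15165 genes (0 matches), so results are given by probe set. Clock, visual, olfactory and other gene lists could not be assigned, and the head tissue could not be checked against marker genes. Probe set names begin with the chromosome arm (2L, 2R, 3L, 3R or X, or UNKN where it is not known).

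Of the Anopheles probe sets, 7188 (42.6%) lay above the background cutoff in heads, 3.75 on the log2 scale. The cutoff is the 95th percentile of the array's Plasmodium falciparum probe sets, parasite sequences that unfed females should lack. Array medians of heads in LD ran from 2.95 to 3.10 on the log2 scale, and the arrays of a time point correlated at 0.989 to 0.991 over the probe sets kept. Some control values had different means at dawn and at dusk. The difference between the 3′ and 5′ probe sets of Gapdh, a glycolytic enzyme used to judge RNA integrity, stood at 2.49 and 2.39 at the dawn time points, against 2.89, 2.57 and 3.06 at the dusk time points (two-sided exact permutation p = 0.2, with 0.1 the smallest p possible). The median of the probe sets kept was 6.65 ± 0.01 at dawn (SD, n = 2) and 6.55 ± 0.06 at dusk (SD, n = 3), and that of the parasite probe sets was 3.03 ± 0.01 at dawn and 3.09 ± 0.04 at dusk (exact permutation p = 0.2 each). Not every dusk stood apart from the other phases. There the Gapdh difference ran from 2.40 to 2.68, a range that includes ZT36. The median of the probe sets kept ran from 6.55 to 6.665, a range that includes ZT12 (6.62). The part of these measures in the results that follow was not tested beyond the values given beside the counts. Actin, of the cytoskeleton, was 1.34-fold higher at dawn by its 3′ probe set and 1.67-fold higher by its 5′ probe set, while Gapdh was 1.07-fold higher by its 3′ and 1.40-fold higher by its 5′ probe set. The limma adjusted p over the 18 control probe sets was 0.0141 and 0.0175 for actin and 0.434 and 0.0181 for Gapdh. None of the bacterial spike-ins added to the RNA passed this test (lowest adjusted p 0.434, limma). The 3′ minus 5′ difference of the spike-in dap was 1.35 and 1.33 at dawn, against 2.03, 1.33 and 1.68 at dusk (exact permutation p = 0.4). For actin it was 2.1 and 2.2 at dawn, against 2.68, 2.12 and 2.62 at dusk (exact permutation p = 0.3). As with Gapdh, ZT12 and ZT60 read higher than ZT36, and the part of this in the results was not tested.

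**Figure D1:**
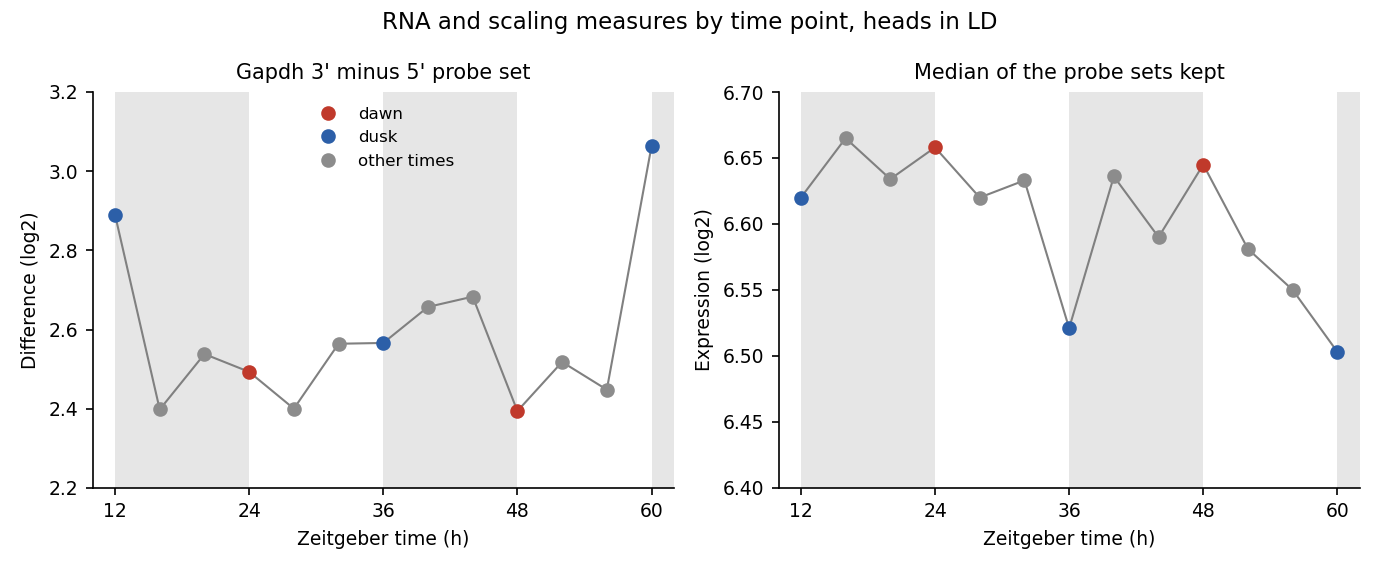
RNA and scaling measures at the 13 time points of heads in LD. The left panel plots the Gapdh 3′ minus 5′ difference (log2) and the right panel the median level of the 7188 probe sets kept (log2) against zeitgeber time in hours, with dawn in red, dusk in blue, other times in grey and dark hours shaded. The Gapdh difference was highest at ZT60 (3.06) and ZT12 (2.89), while ZT36 (2.57) lay closer to the dawn values (2.49 and 2.39).

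Almost 3 in 10 head probe sets differed between dawn and dusk. Of the 7188 tested, 2118 (29.5%) passed an adjusted p of 0.05 (limma on time point means), 1434 (19.9%) higher and 684 (9.52%) lower at dawn. Most of the differences were small: the median was 1.45-fold among those higher and 1.61-fold among those lower, and 252 rose and 215 fell at least 2-fold. At the far end, 25 probe sets were at least 8-fold higher and 17 at least 8-fold lower at dawn. The dusk mean of 62 higher calls and the dawn mean of 22 lower calls lay under the background cutoff. The folds of those calls rest on background levels. Without adjustment 2824 probe sets passed. Nothing in the labels tells whether both arrays of a time point had a pool each, so p-values measure the spread of 13 time points, with 3 dusks and 2 dawns of one collection, which may be technical. In pooled heads, fewer cells of a type and less RNA per cell cannot be told apart.

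The balance of higher to lower calls depended on how arrays were put on a common scale. Of the calls, 67.7% were higher at dawn as deposited, 56.4% after quantile normalization and 75.2% with each array centred on the parasite probe sets. With each array centred on the median of the probe sets kept, which shifts the median difference to -0.04, against 0.06 as deposited, 928 were higher and 1015 lower (47.8% higher). With the Gapdh 3′ minus 5′ difference as a covariate 1160 probe sets were called, 740 higher and 420 lower. That fit kept 1100 of the 2118 calls, 0 of the 2118 changed sign, and the median standard error was 0.15, against 0.11 without the covariate. The median difference with the covariate was 0.52 for the 1434 higher and -0.72 for the 684 lower, against 0.54 and -0.69 without it. With ZT36 as the sole dusk time point, whose Gapdh difference lay closest to dawn, 1491 were called, of which 1331 were among the 2118, again with 0 changes of sign. Without ZT24 1404 were called. The fits with the covariate and with ZT36 alone at dusk used arrays on which the 2118 were chosen. This favours unchanged signs. None of the 4502 parasite probe sets passed (0 calls, limma), although 1716 of them (38.1%) had an unadjusted p under 0.05, with a median difference of -0.06.

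For a large part of the calls every dawn array stood on one side of every dusk array. Over all probe sets tested, the 4 dawn arrays lay above the 6 dusk arrays for 951 (13.2%) and below them for 589 (8.19%). Among the calls, which rest on the same arrays, this held for 893 of the 1434 higher (62.3%) and 531 of the 684 lower (77.6%). At the other end, the 95% confidence interval of the difference lay within 1.25-fold in either direction for 1840 probe sets (25.6%). It lay within 1.5-fold for 4620 (64.3%), 421 of them called.

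Among calls with both means above the cutoff, the highest and lowest differences were about 30-fold. Array values are given in order of time, replicate 1 before replicate 2. Ag.2L.324.0_CDS_a_at read 11.62, 11.51, 11.45 and 11.65 on the log2 scale on the dawn arrays, and 6.14, 6.29, 6.32, 6.88, 6.75 and 7.05 on the dusk arrays. The groups lay far apart, with the levels of the dawn arrays within 0.2 of each other. Dawn minus dusk was 4.98 (SE 0.16), a 31.6-fold difference (adjusted p = 1.09e-08, limma). Ag.2L.957.0_CDS_s_at read 8.60, 8.81, 8.70 and 9.07 at dawn, and 3.76, 4.32, 3.61, 4.15, 3.41 and 4.46 at dusk. Its dusk arrays lay on both sides of the background cutoff, and the suffix _s_at marks probes shared with other transcripts. The difference was 4.84 (SE 0.09), or 28.7-fold (adjusted p = 2.46e-10, limma).

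Both of the lowest differences were also far outside the spread. Ag.2L.393.0_CDS_a_at read 6.66, 6.88, 6.53 and 7.03 at dawn, and 11.80, 11.83, 11.82, 11.67, 11.81 and 12.02 at dusk. Its dusk arrays were among the brightest values of the named probe sets, and its dawn arrays were still well above the cutoff. The difference was -5.05 (SE 0.17), 33.1-fold lower at dawn (adjusted p = 1.25e-08, limma). Ag.2R.3725.0_at read 5.37, 5.79, 5.93 and 6.30 at dawn, and 10.67, 10.44, 10.98, 11.00, 11.00 and 10.93 at dusk. Here the ZT24 arrays were lower than the ZT48 arrays, by far less than the gap to dusk. The difference was -4.98 (SE 0.19), 31.6-fold lower at dawn (adjusted p = 2.86e-08, limma).

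**Figure D2:**
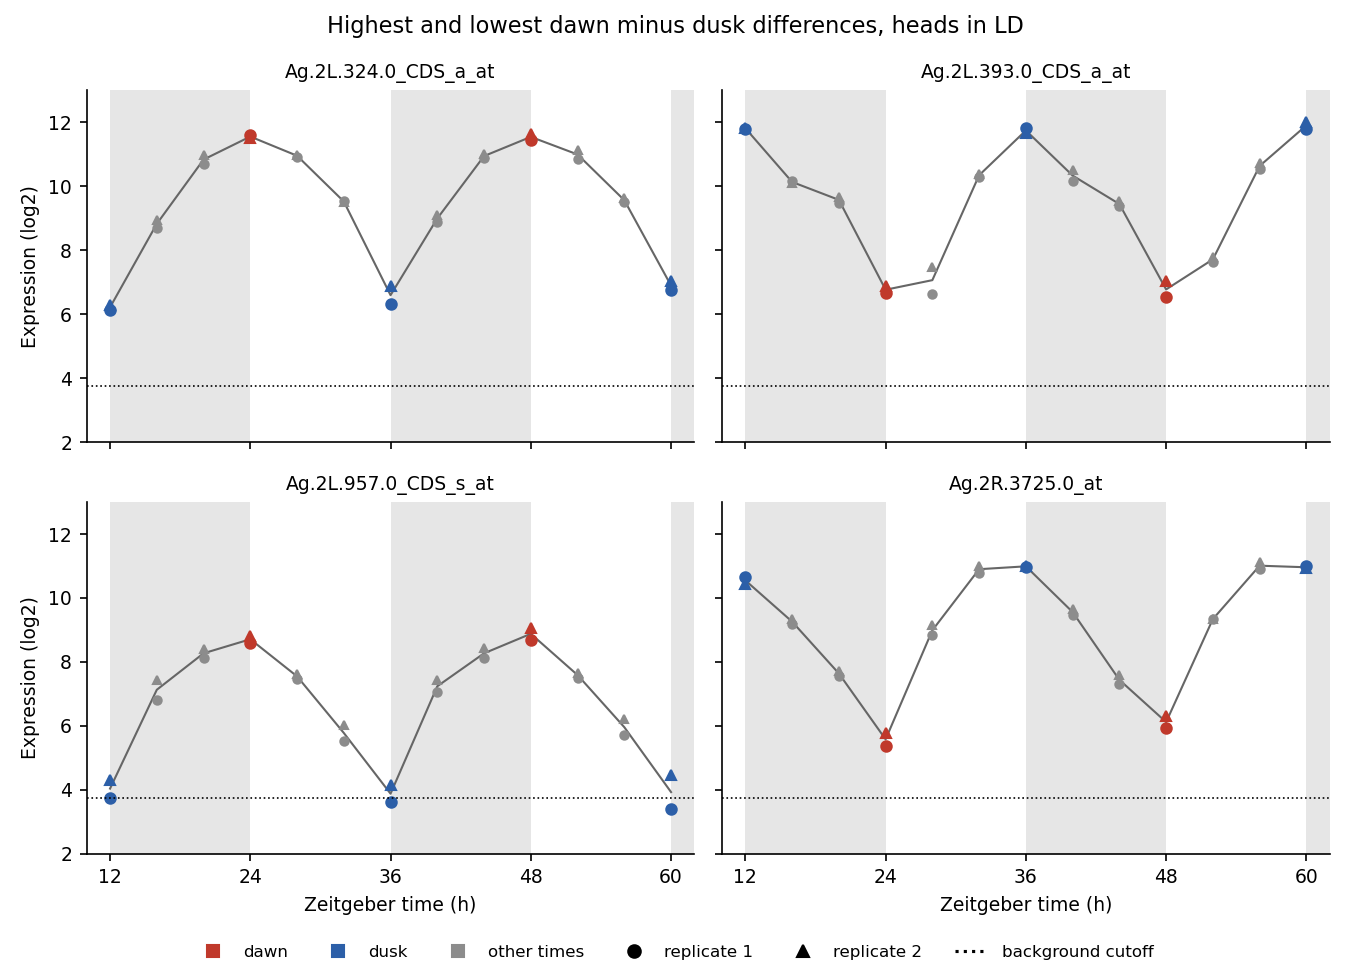
Level (log2) of the 4 named probe sets on each array of heads in LD against zeitgeber time in hours. Circles are replicate 1, triangles replicate 2 and lines the time point means. Dawn is red, dusk blue, dark hours are shaded, and the dotted line is the background cutoff (3.75). The left column holds the probe sets higher at dawn and the right column those lower at dawn. Dawn and dusk points do not overlap in any of the panels, and Ag.2L.957.0_CDS_s_at reaches the cutoff at dusk.

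The contrast was then split into days that share no array. ZT24 minus ZT12 was set beside ZT48 minus ZT60, leaving out ZT36. Both pairs thus use a dusk with a higher Gapdh 3′ minus 5′ difference (2.89 at ZT12 and 3.06 at ZT60) than ZT36 (2.57). The part of this in the likeness of the pairs was not tested. Over the 7188 probe sets the dawn minus dusk values of the pairs correlated at 0.80, and 5144 (71.6%) had the same sign (a description, since probe sets share arrays and are not replicates). All 2118 calls had the same sign in both pairs, which their selection on these arrays favours. The calls higher at dawn had medians of 0.52 in the first pair and 0.58 in the last, and the calls lower at dawn -0.81 and -0.66. A difference of at least 2-fold was found in both pairs for 204 probe sets higher and 179 lower at dawn. It was found in the first pair alone for 201 and in the last pair alone for 164, and 4 were 2-fold up in one pair and 2-fold down in the other.

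**Figure D3:**
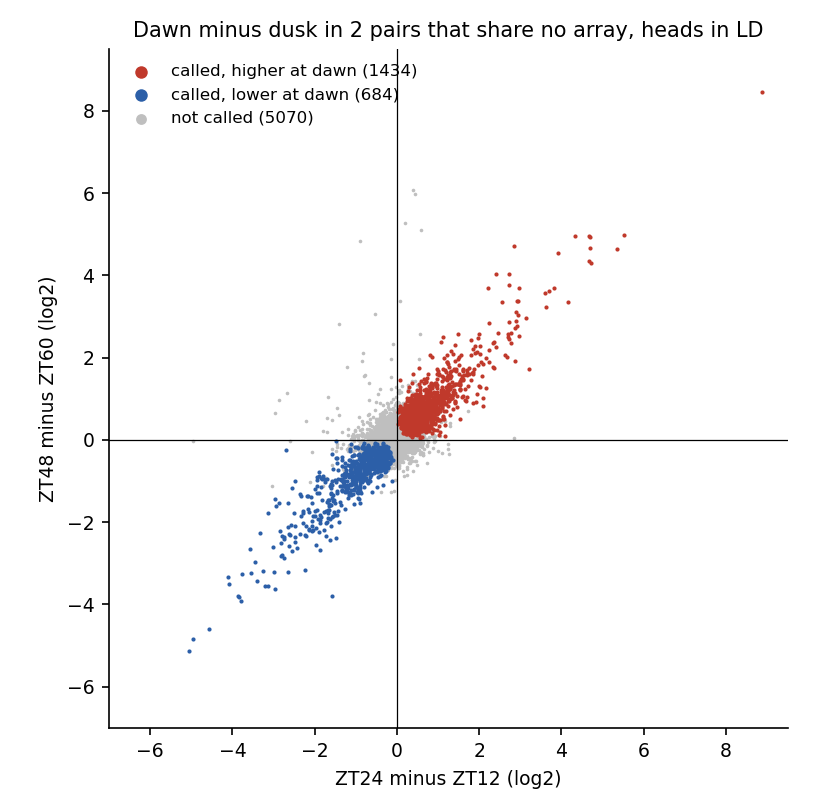
Dawn minus dusk (log2) in ZT24 minus ZT12 (x axis) against ZT48 minus ZT60 (y axis), 1 point per probe set. Red points were called higher at dawn (1434), blue points lower (684), and grey points not called. The called points lie along the diagonal, many grey points with large values lie near an axis, and the red point at the upper right is a probe set whose dusk mean was below the background cutoff.

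The other 4 phases of the cycle showed where dawn and dusk lay in the daily course of these probe sets. The 13 time points fall into dawn, early day, late day, dusk, early night and late night, 4 h apart. Of the 1434 probe sets higher at dawn, 698 (48.7%) had their highest phase mean at dawn and 387 (27.0%) in the early day, while 1054 (73.5%) were lowest at dusk. Over all probe sets tested the shares were 20.4% highest at dawn and 30.4% lowest at dusk. Of the 684 lower at dawn, 414 (60.5%) were highest at dusk and 156 (22.8%) in the late day. These were lowest at dawn in 352 cases (51.5%) and in the early day in 212 (31.0%), against 13.6% highest at dusk and 14.4% lowest at dawn over all tested. The calls use the same arrays, so these shares describe the lists and test nothing.

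The median course of the lists was similar on both days, which their selection on these dawn and dusk arrays favours. Relative to each probe set's own mean, the list higher at dawn had medians of 0.26 at ZT24 and 0.25 at ZT48, and of -0.27, -0.29 and -0.33 at ZT12, 36 and 60. The list lower at dawn had medians of -0.36 and -0.36 at dawn, and of 0.45, 0.30 and 0.33 at dusk. Both lists lay near their own mean in the early night.

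**Figure D4:**
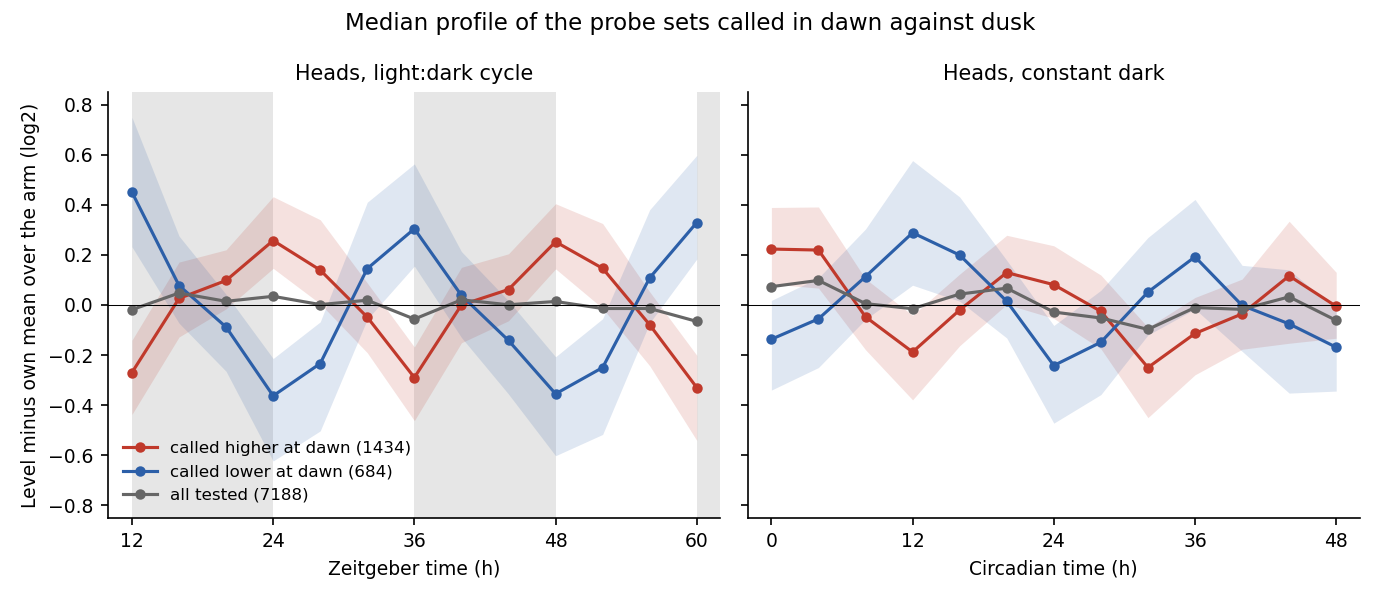
Median level relative to each probe set's own mean (log2) for the 1434 probe sets called higher at dawn (red), the 684 called lower (blue) and all 7188 tested (grey), with bands from the lower to the upper quartile. The left panel shows heads in LD against zeitgeber time in hours, with dark hours shaded, and the right panel heads in DD against circadian time in hours. In LD the red line peaks at ZT24 and ZT48 (0.26 and 0.25) and the blue line at the dusks. In DD the ranges are smaller, and after the first dawn the red line is higher in late night (0.13 at CT20 and 0.12 at CT44) than at subjective dawn (0.08 at CT24 and -0.01 at CT48), with its lowest value at CT32 (-0.25).

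Dawn itself stood out from its neighbouring phases in fewer probe sets. Against the mean of late night and early day, 259 probe sets (3.60%) were called, 127 (1.77%) higher and 132 (1.84%) lower at dawn, with 21 and 24 of them changed at least 2-fold. The unadjusted count was 1069. Ag.2R.628.0_CDS_at read 7.39, 8.00, 7.04 and 7.50 at dawn, while late night arrays lay between 2.63 and 3.89, near or below the cutoff, and early day arrays between 5.07 and 6.15. Its signal was thus highest at dawn in both days. Dawn minus neighbours was 2.91 (SE 0.24, adjusted p = 0.000208, limma), which rests in part on late night values below the cutoff. Ag.2R.3352.0_CDS_at read 6.0, 6.60, 6.42 and 6.64 at dawn, against 2.85 to 3.45 in late night and 4.88 to 5.56 in early day (adjusted p = 0.000604, limma). All of its late night arrays lay below the cutoff, so no fold is given.

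Of those lower at dawn than in both neighbouring phases, Ag.2R.3725.0_at was 5.67-fold lower (difference -2.50, SE 0.18, adjusted p = 9.74e-05, limma), with late night arrays between 7.30 and 7.73 and early day arrays between 8.83 and 9.34. Ag.3L.178.0_CDS_s_at read 8.35, 8.61, 8.78 and 9.08 at dawn, against 10.26 to 10.84 in late night and 10.89 to 11.06 in early day. All of its dawn arrays lay below both phases, and it was 4.14-fold lower (difference -2.05, SE 0.16, adjusted p = 0.000184, limma). The count depended on the days that entered it: 71 were called without ZT24, 133 without ZT52, 140 without ZT20, 153 without ZT44 and 166 without ZT28. On replicate 2 arrays alone 131 were called and on replicate 1 arrays alone 126. With arrays taken one by one and the replicate number as a block, 497 were called.

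Dusk differed from its neighbours in 1006 probe sets (14.0%), 284 (3.95%) higher and 722 (10%) lower. Against the mean of late day and early night, 39 were at least 2-fold higher and 46 at least 2-fold lower, and 2079 passed without adjustment. Of the dusk calls 28.2% were higher as deposited, 42.6% after quantile normalization and 52.2% with arrays centred on the probe sets kept (407 higher, 373 lower). With the Gapdh covariate 336 were called, and with ZT36 as the sole dusk time point 393, of which 326 were among the 1006. With the covariate the median difference of the 722 lower was -0.41 and the median standard error 0.13, against -0.43 and 0.09 without it. The size of the dusk list thus moved with these settings, and 574 were called on replicate 1 arrays alone and 657 without ZT32. Among the parasite probe sets 0 were called (limma), with 2017 (44.8%) at an unadjusted p under 0.05.

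The 4 probe sets named for dusk were called under each of these settings. Ag.3R.28.0_CDS_at read 6.51, 7.15, 7.03, 7.27, 6.45 and 7.21 at dusk, against 4.23 to 5.14 in late day and 4.23 to 4.99 in early night. It was raised at all 3 dusk time points and lay between 4.37 and 5.23 in the other phases. Dusk minus neighbours was 2.39 (SE 0.14), or 5.23-fold (adjusted p = 4.08e-06, limma). Ag.2L.1428.0_CDS_at read 6.86, 7.12, 6.29, 6.49, 6.49 and 6.54 at dusk, against 4.06 to 5.28 in late day and 4.06 to 4.91 in early night (3.84-fold, adjusted p = 0.000231, limma). Ag.2R.1137.0_CDS_at was lower at dusk, with arrays at 5.84, 6.02, 4.68, 5.83, 5.84 and 6.29, against 8.95 to 9.36 in late day and 7.49 to 7.81 in early night. Its lowest arrays were those of the 3 dusk time points, and the difference was -2.67 (SE 0.16, 6.38-fold lower, adjusted p = 4.82e-06, limma). Ag.2L.324.0_CDS_a_at, above, was 6.33-fold lower at dusk than in its neighbours (difference -2.66, SE 0.13, adjusted p = 1.12e-06, limma).

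The dawn and dusk contrasts with their neighbours compare means of different arrays, but both come from the same fit of 13 time points. They share the residual variance of each probe set, and a low variance favours calls in both, which was not tested. Over all probe sets tested, 3.60% were called at dawn and 14.0% at dusk. The lists shared 114 calls, 44.0% of the dawn list and 11.3% of the dusk list. Of these, 43 were higher at dawn and lower at dusk, 48 lower at dawn and higher at dusk, 6 higher at both and 17 lower at both. Over all 7188 probe sets the differences correlated at -0.09.

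Calls were spread over the chromosome arms. Of the probe sets tested, 22.0% were higher and 11.2% lower at dawn on 3R, 17.3% and 9.76% on X, and 19.1% to 20.7% and 8.83% to 9.19% on 2L, 2R and 3L. By mean level, 16.2% were higher and 5.56% lower at dawn among probe sets under 6 on the log2 scale, 23.4% and 10.6% between 6 and 9, and 19.7% and 15.8% above 9. Lower calls were thus a larger share among the brightest probe sets, with no test made. Some clusters are read by several probe sets, which share a cluster number and may share transcript sequence. Of 1148 such pairs tested, 228 had both members called, 225 of them in the same direction. In 227 pairs 1 member was called, and 206 of these pairs had the same sign.

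Head calls shared their direction with bodies from the same collections more often than not, with smaller medians there. The lists were chosen on the head arrays, which favours larger medians in heads. The median standard error was 0.11 in heads and 0.16 in bodies. Relative to each probe set's own mean, the body medians of the list higher at dawn were -0.01 and 0.07 at dawn. In the early day they were 0.154 and 0.205, against 0.06 and 0.17 over all tested. The part of this course in the smaller dawn minus dusk medians was not tested. Bodies had 798 calls (13.1% of the 6075 probe sets kept in both tissues), 456 (7.51%) higher and 342 (5.63%) lower at dawn. Of the 1279 head calls higher at dawn that were tested in bodies, 65.7% had the same sign there (52.9% of all tested), 242 were called in the same and 18 in the opposite direction, and their median was 0.52 in heads and 0.13 in bodies. Of the 608 lower, 70.7% had the same sign (47.1% of all tested), 153 were called in the same and 19 in the opposite direction, and their median was -0.66 in heads and -0.23 in bodies. The difference between tissues was itself called for 891 probe sets (14.7%), with dawn minus dusk more positive in heads for 522 (8.59%) and more negative for 369 (6.07%). The unadjusted count was 1737. In size, the head difference was the larger for 535 and the body difference for 356, and the signs were opposite in 557. With a replicate block 1559 were called, and without ZT24, which leaves 1 dawn, 300. On replicate 2 arrays alone 514 were called, on replicate 1 arrays alone 531, and without ZT52, whose body arrays differed most from each other, 966. Gapdh 3′ minus 5′ in bodies ran from 2.28 to 3.05 at dawn and from 2.91 to 3.81 at dusk, and its part in this comparison was not tested.

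The 4 probe sets named for the difference between tissues changed in heads, and in bodies they did not pass the test or ran the other way. Ag.2L.324.0_CDS_a_at, 31.6-fold higher at dawn in heads, read 7.67 to 7.90 at dawn and 7.47 to 8.16 at dusk on body arrays, which overlapped. The tissue difference was 5.04 (SE 0.21, adjusted p = 4.28e-07, limma). Ag.X.89.0_CDS_a_at read 12.47 to 12.66 at dawn and 8.87 to 9.49 at dusk in heads. In bodies it ran the other way, with 8.35, 8.79, 7.66 and 7.77 at dawn and 9.51 to 9.80 at dusk, and neither tissue's groups overlapped. Heads minus bodies was 4.96 (SE 0.23, adjusted p = 5.62e-07, limma), made up of 3.44 for heads and -1.52 for bodies (adjusted p of the body difference 0.00217, limma).

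Ag.2R.3725.0_at, 31.6-fold lower at dawn in heads, read 11.01, 11.10, 10.42 and 10.55 at dawn in bodies and 10.14 to 10.90 at dusk. These body groups overlapped (difference 0.20, adjusted p = 0.645, limma), and the tissue difference was -5.18 (SE 0.29, adjusted p = 2.3e-06, limma). Ag.2R.40.0_CDS_a_at read 5.81, 6.44, 5.69 and 6.17 at dawn and 8.68 to 9.27 at dusk in heads, and stayed between 4.78 and 4.92 in bodies at all of these times. Over all LD time points its body arrays lay between 4.74 and 4.92. This is above the body cutoff (3.78), but so flat a level may be background, and detection in bodies was not tested. Its tissue difference was -2.85 (SE 0.15, adjusted p = 1.46e-06, limma). In both tissues Ag.2L.393.0_CDS_a_at was lower at dawn, with dawn minus dusk at -5.05 in heads and at -3.24 in the body arrays (0.00221 as the adjusted p there, limma).

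In constant dark most of the head differences kept their direction with a smaller median, on lists that the LD arrays had chosen. Heads in DD had 288 calls of their own (4.01% of 7188), 134 (1.86%) higher and 154 (2.14%) lower at subjective dawn. Of the 1434 probe sets higher at dawn in LD, 81.5% had the same sign in DD (50.0% of all tested), with 117 called in the same and 1 in the opposite direction and a median of 0.54 in LD and 0.25 in DD. Of the 684 lower, 88.0% had the same sign (50.0% of all tested), with 137 called in the same and 2 in the opposite direction and medians of -0.69 in LD and -0.40 in DD. The precision differed, with a median standard error of 0.11 in LD and 0.18 in DD, so fewer calls in DD do not show fewer differences. The Gapdh 3′ minus 5′ difference in DD overlapped between subjective dawn (3.94 to 4.51) and dusk (3.91 to 4.19), unlike in LD, and in DD it reached 7.54 at CT44, with the next highest value at 4.51. Without CT44 heads in DD had 310 calls.

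The difference between LD and DD was called for 207 probe sets (2.88%), 118 (1.64%) with a more positive and 89 (1.24%) with a more negative dawn minus dusk in LD. The unadjusted count was 991. In 172 of the 207 the LD difference was the larger in size and in 35 the DD difference. Without CT44 250 were called, with a replicate block 350, without ZT24 67, without ZT48 133 and without ZT60 117. On replicate 2 arrays alone 108 were called and on replicate 1 arrays alone 124. Under quantile normalization the more positive calls made up 46.7% of 214, against 57.0% as deposited. The regimes were separate collections, and the poly-A spike-in dap had a 3′ minus 5′ difference of 1.33 to 2.03 over heads in LD and of 2.38 to 3.22 over heads in DD, so regime and RNA processing cannot be told apart.

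Ag.UNKN.55.0_CDS_a_at read 10.36, 10.68, 10.48 and 10.55 at dawn and 7.63 to 8.01 at dusk in LD. In DD its arrays overlapped, with 8.82 to 10.16 at subjective dawn and 8.67 to 9.73 at subjective dusk. LD minus DD was 2.38 (SE 0.40, adjusted p = 0.00282, limma). The level of Ag.UNKN.55.0_CDS_a_at was not flat in DD. Its time point means there were 8.41 at CT8, 10.18 at CT20, 8.37 at CT32 and 10.53 at CT40. Whether its course in DD was shifted against LD was not tested. Ag.3L.25.0_CDS_a_at read 4.74 to 5.67 at dawn and 7.79 to 8.79 at dusk in LD, and 3.96 to 4.77 at subjective dawn and 4.58 to 4.92 at subjective dusk in DD (difference -2.79, SE 0.30, adjusted p = 0.000125, limma). Its high dusk values were thus found in LD, while in DD the level stayed low at both times.

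In Ag.3R.713.0_CDS_s_at the regimes ran in opposite directions. It read 7.27 to 7.72 at dawn and 7.78 to 8.42 at dusk in LD, and 8.96 to 9.62 at subjective dawn and 6.76 to 7.59 at subjective dusk in DD. Dawn minus dusk was -0.69 in LD (adjusted p = 0.0336, limma) and 2.06 in DD (adjusted p = 0.00538, limma), a difference of -2.75 (SE 0.39, adjusted p = 0.000798, limma). Ag.2R.424.0_CDS_a_at read 7.60 to 8.61 at dawn and 6.35 to 7.71 at dusk in LD, and 7.48 to 7.86 at subjective dawn and 8.51 to 10.19 at subjective dusk in DD. The difference of 2.94 (SE 0.65, adjusted p = 0.0195, limma) did not pass without ZT48 (adjusted p = 0.0962) or ZT60 (0.0540) or with no filter (0.0533). The 4 probe sets named for dawn against dusk in LD also differed in DD (adjusted p from 0.00198 to 0.00596, limma). Dawn minus dusk in DD was 4.59 for Ag.2L.324.0_CDS_a_at, 2.83 for Ag.2L.957.0_CDS_s_at, -4.85 for Ag.2L.393.0_CDS_a_at and -3.92 for Ag.2R.3725.0_at. The change of Ag.2L.957.0_CDS_s_at was called smaller in DD (LD minus DD 2.01, adjusted p = 0.0199, limma). For the others LD minus DD was not called (adjusted p from 0.526 to 0.949, limma).

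**Figure D5:**
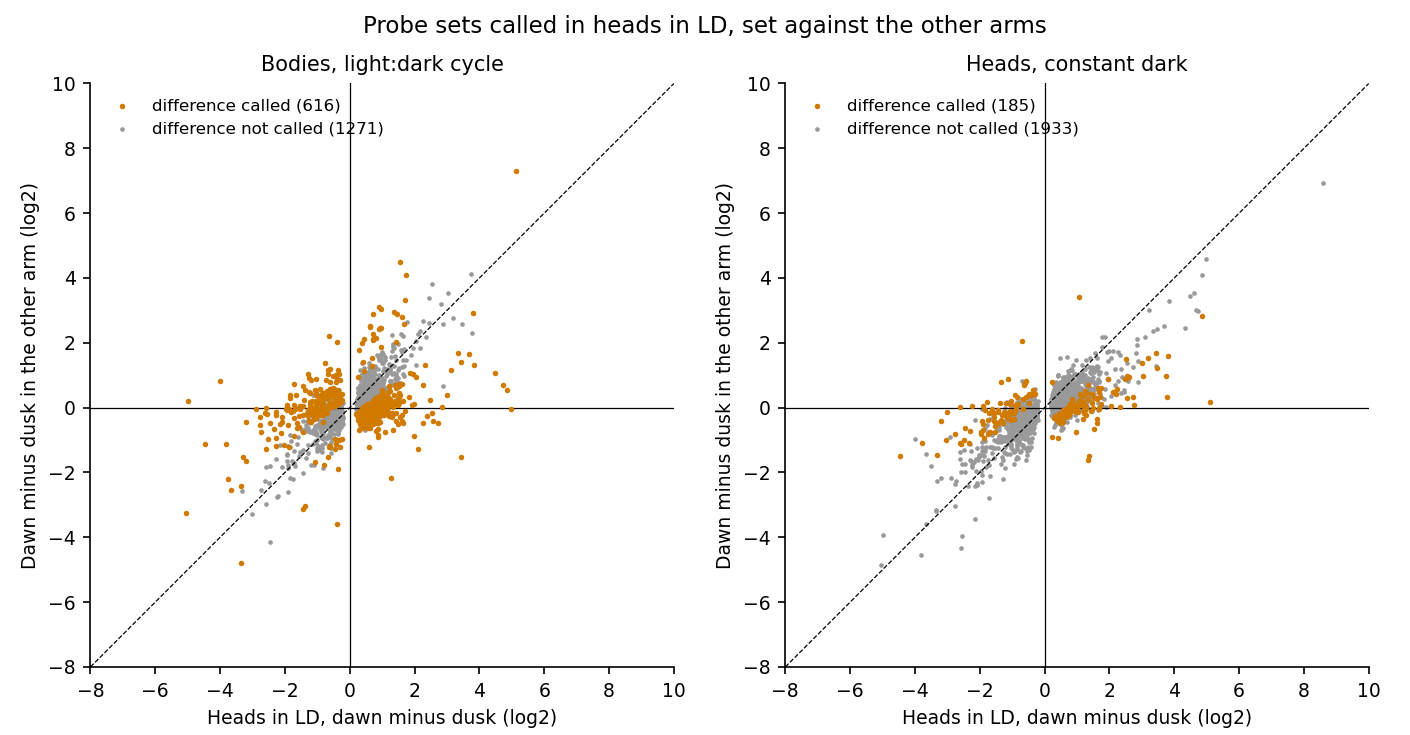
Dawn minus dusk (log2) of the probe sets called in heads in LD (x axis of both panels) against the same difference in bodies in LD (left, 1887 probe sets) and in heads in DD (right, 2118 probe sets). Orange points are those whose difference between the arms was called (616 on the left, 185 on the right), and the dashed line marks equal differences. On the left many points lie near the horizontal axis, as for Ag.2L.324.0_CDS_a_at (-0.06 in bodies). On the right most lie along or below the diagonal in size.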

How the data were processed

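Total RNA of pooled mosquitoes was read on 104 Affymetrix arrays after 3′ in vitro transcription labelling, per the labels' protocols. The authors used GCRMA (background correction, normalization and summary of probes), per the submitters' processing notes, and deposited log2 values. Not given in the sources used here are its version, how probe sets were defined and whether all arrays were normalized as 1 set. The table holds 22761 probe sets, of which 16884 are named for Anopheles, 4502 for P. falciparum and 144 as controls. The other 1231 name no organism and were left out. No arrays were identical (0 pairs).

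An Anopheles probe set was kept when its mean over all arrays of a tissue exceeded the 95th percentile of the P. falciparum means. The arrays of a time point were averaged, and limma 3.58.1 in R 4.3.3 (lmFit, eBayes, Benjamini-Hochberg, threshold 0.05) fitted 6 phase means to the 13 time points of heads in LD, leaving 7 residual degrees of freedom. Heads and bodies were compared as differences at each time point, and LD and DD in a joint fit of 26 means. The fits were tested on simulated data. In each comparison the 2 highest and 2 lowest calls are named if both replicates gave the same sign and the means compared exceeded the cutoff. The rule for genes with symbols could not be used. Same-numbered arrays deviated together in 78 of 78 pairs of time points (correlations 0.28 to 0.56), so the replicate numbers pair the arrays. This pairing comes from the data, since the labels give the numbers alone. Members and lists were chosen with earlier results of these data known. The alternatives were other normalizations and filters, single replicates, time points left out, eBayes with a mean-variance trend and the robust option, and a replicate block. The Gapdh covariate, the centring of arrays, ZT36 as the sole dusk, and leaving out CT44 or ZT52 were chosen after seeing the data. The number of arrays limits the precision.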

Additional observations from a re-analysis of the deposited data

Results flagged for a closer look

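Single arrays stood apart from the rest of their group in 3 of 36 checks, where chance gives about 1 in 20. In Ag.2R.628.0_CDS_at at dusk, ZT36 replicate 2 read 2.88 while the others lay between 2.15 and 2.41, and the gap was 0.649 of the range. All of these values lay below the background cutoff (3.75), so this flag concerns background levels. In Ag.2R.1137.0_CDS_at at dusk, ZT36 replicate 1 read 4.68 while the others lay between 5.83 and 6.29 (0.718 of the range). The Gapdh 3′ minus 5′ difference at dawn was 2.32 on ZT48 replicate 1 and 2.47 to 2.50 on the others (0.868 of the range).

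Dawn minus dusk differed between arms, by a test of the difference itself (limma), for 891 probe sets between heads and bodies in LD and for 207 between heads in LD and heads in DD. Between tissues the named differences, heads minus bodies, were 5.04 for Ag.2L.324.0_CDS_a_at, 4.96 for Ag.X.89.0_CDS_a_at, -5.18 for Ag.2R.3725.0_at and -2.85 for Ag.2R.40.0_CDS_a_at. Between regimes, LD minus DD, they were 2.94 for Ag.2R.424.0_CDS_a_at, 2.38 for Ag.UNKN.55.0_CDS_a_at, -2.79 for Ag.3L.25.0_CDS_a_at and -2.75 for Ag.3R.713.0_CDS_s_at.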

How the results depend on the processing

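Of 2118 dawn against dusk calls 1049 were at least 1.5-fold and 467 at least 2-fold, and with the Gapdh covariate 1160 were called. Leaving out a time point of the contrast or a replicate gave 1404 to 2020, the lowest without ZT24. For dawn against its neighbours (259 calls) these gave 71 to 187, for dusk against its neighbours (1006) 574 to 916, for heads against bodies (891) 300 to 770 and for LD against DD (207) 67 to 161. Time points outside the contrast gave more calls when left out, 966 for heads against bodies without ZT52 and 250 for LD against DD without CT44. For dusk against its neighbours the Gapdh covariate gave 336 and ZT36 as the sole dusk 393. Taken one by one with the time point as a random block, arrays gave 497 calls with the replicate block and 507 without it for dawn against its neighbours, 1559 and 1356 for heads against bodies, and 350 and 372 for LD against DD. The replicate block gave 2368 calls for dawn against dusk and 1339 for dusk against its neighbours, and it changed the call of no named probe set. The other filters and normalizations that were run kept the total of each comparison within 1.5 times, but not each direction: with arrays centred on the probe sets kept, 928 were higher at dawn than at dusk (1434 as deposited) and 373 lower at dusk than in its neighbours (722). For the 20 named results 323 of 326 alternative values kept direction and call, 3 lost the call (all of them Ag.2R.424.0_CDS_a_at) and 0 changed direction. Why counts moved was not tested, except that fewer time points enter where some are left out. Troughs near the background cutoff are limited by signal over background, and probe sets with shared probes may read several transcripts.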
